A study of Homo sapiens with 30 samples.

Results

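The mRNAs described here are 8 non-ribosomal members of the TOP class: EEF1A1, EEF1B2, EEF1D, EEF1G, EEF2, TPT1, PABPC1 and NPM1. They make up 8 of the 62750 gene identifiers in the count tables, and of the 19061 genes with a MANE Select transcript (the single reference transcript of a gene). The genes were chosen by name, as mRNAs held to begin with a terminal oligopyrimidine (TOP) tract, and by no cutoff on a value measured here. Earlier results of these data were known at the time. A peak was given to a gene when its centre lay in the gene on the same strand, and peaks centred in the first 50 nt of the mRNA were kept apart from the rest.

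The study mapped where LARP6, an RNA-binding protein, touches RNA in living cells, and which parts of the protein that needs. The cells were U-87 MG, a long-established glioblastoma line of human origin. Pools of cells transduced with a lentivirus and selected with puromycin carried a doxycycline-inducible, myc-tagged, codon-optimised LARP6: either full-length (FL) or lacking the disordered N-terminal region (ΔNTR), the folded La-module (ΔLa-module), both of these (ΔNTD) or the C-terminal region (ΔCTR), and parental U-87 MG cells without a construct were the negative control. All received 60 ng/mL doxycycline for 24 h, and all kept their endogenous LARP6. Each of the 6 lines gave 3 iCLIP samples, 18 in all (ultraviolet crosslinking, pull-down with a myc antibody and sequencing up to the crosslinked base), deposited as 5 peak lists that pool 3 replicates each and from which parental peaks had been subtracted. Each line also gave 1 long-RNA library of total RNA, with 25027075 to 28692476 counts in genes. With pooled lists and 1 library per line no spread between replicates could be had, so the text gives no p-value, and every interval is a 95% interval that covers counting error only. The depth of the iCLIP libraries is unknown.

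In the long-RNA libraries, markers expected of a glioma line were abundant, with VIM at 7073 to 7986 and FN1 at 4328 to 5667 CPM (counts scaled to a library total of 1000000). SOX10 and CD3E were at 0, GFAP, an astrocyte marker, reached at most 0.240 CPM, MAP2, a neuronal one, 25.6 CPM, and RBFOX3, PTPRC, SYP, OLIG2, EPCAM and KRT8 stayed at or under 6.01 CPM. LARP6 ranged from 51.9 to 74.8 CPM over the 6 lines, a value that does not check the constructs, because their codon-optimised sequence differs from that of the gene.

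TOP mRNAs start with a cytidine at the cap, followed by an unbroken run of pyrimidines. They encode ribosomal proteins and other parts of the translation machinery, and their translation is switched together by the growth signals that act through mTOR, with LARP1, a relative of LARP6, binding the tract. Of the proteins described here, eEF1A1 carries aminoacyl-tRNA to the ribosome, and eEF1B2, eEF1D and eEF1G form the complex that recharges it with GTP. The factor eEF2 drives translocation of the ribosome along the mRNA, and PABPC1 is the cytoplasmic poly(A)-binding protein. TPT1 (TCTP) is a growth-related protein and NPM1 (nucleophosmin) a nucleolar chaperone of ribosome assembly.

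The starts of 6 of these mRNAs are shown because the tract defines the class. They were read from GRCh38 at the MANE Select starts, in the direction of transcription, and the capitals mark the pyrimidine run. RefSeq entries for the promoter windows existed for the same 6 genes and held the same 30 bases in each.
EEF1A1, chr6:73521003-73521032, minus strand: CTTTTTCgcaacgggtttgccgccagaaca
EEF1B2, chr2:206159895-206159924, plus strand: CCTTTTTCCTCTCTTCagcgtggggcgccc
EEF1G, chr11:62573862-62573891, minus strand: aCTTTgcggcagcgccgagaaccccacccc
EEF2, chr19:3985434-3985463, minus strand: CTCTTCCgccgtcgtcgccgccatcctcgg
TPT1, chr13:45341154-45341183, minus strand: CTTTTCCgcccgctcccccctccccccgag
NPM1, chr5:171387849-171387878, plus strand: CTTTCCCTggtgtgattccgtcctgcgcgg
Counted from the annotated start, the run was 16 nt in EEF1B2, 12 nt in PABPC1, 9 nt in EEF1D, 8 nt in NPM1 and 7 nt in EEF1A1, EEF2 and TPT1. EEF1G was the exception, since its annotated first base is an A and the run of 4 nt begins at the next base. A start with C and a run of at least 5 pyrimidines was found in 539 of 9057 genes of at least 10 CPM (5.95%).

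Binding of LARP6 to these mRNAs was uneven, and most of it lay in EEF2 and PABPC1. The FL list held 58 peaks in the 8 genes (44.0 to 75.0), with a summed peak score of 350. The peak score is the authors' whole number for a site, summed over the 3 replicates, and it is at least 3. The ΔNTR list held 53 peaks (39.7 to 69.3) with a score of 301, and the ΔCTR list 65 peaks (50.2 to 82.8) with a score of 426. These scores were 0.341, 0.324 and 0.359% of the total score of each list. The 3 intervals of the peak counts overlap one another. The ΔLa-module list held 4 peaks in these genes (1.09 to 10.2) with a score of 12, and the ΔNTD list 1 peak (0.0253 to 5.57) with a score of 7. Both lists were short as a whole, with 636 and 291 peaks, and the 8 genes made up 0.517 and 0.701% of their scores. With score units as the counts, the intervals were 0.27 to 0.90% and 0.28 to 1.44%. Both include the FL share of 0.341%. Of the 4 ΔLa-module peaks only the one in the PABPC1 3'UTR overlapped an FL peak. EEF2 and PABPC1 together held 77.6% of the FL peaks, 81.1% of the ΔNTR peaks and 83.1% of the ΔCTR peaks of the 8 genes.

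**Figure D1:**
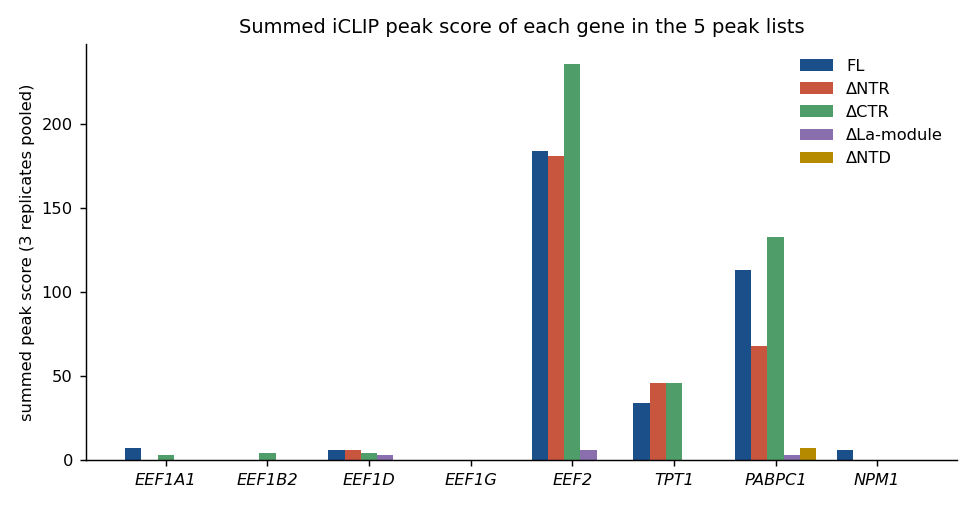
Summed peak score (vertical axis, 3 replicates pooled, no error available) of each of the 8 genes in the 5 peak lists. EEF2 reached 184 (FL), 181 (ΔNTR) and 236 (ΔCTR) and PABPC1 113, 68 and 133, while the 4 genes of the eEF1 complex stayed at or under 7.

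A peak anywhere in the gene was present for 6 of the 8 genes in both FL and ΔCTR, for 4 in ΔNTR, for 3 in ΔLa-module and for 1 in ΔNTD. Among all 9057 genes of at least 10 CPM the shares were 47.6, 48.7, 50.6, 4.45 and 2.38%. These mRNAs are abundant, however, and abundant mRNAs nearly all had a peak. Of the 712 genes at least as abundant as EEF1D, the lowest of the 8 genes with counts, 92.3% had an FL peak, 92.8% a ΔNTR peak and 93.3% a ΔCTR peak. EEF1G had no counts and cannot be set against that background. Of the 7 genes with counts, 85.7% had an FL peak, 57.1% a ΔNTR peak and 85.7% a ΔCTR peak. FL and ΔCTR peaks were thus no more frequent in them than among abundant mRNAs, and 4 of the 8 genes had no ΔNTR peak.

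EEF1A1, the most abundant of the 8 mRNAs, had only 2 FL peaks, with scores of 4 and 3. They were centred at nt 1119 and nt 322 of the mRNA, both in the coding sequence. The ΔNTR list had none in this gene, and the ΔCTR list had 1 of score 3, overlapping the FL peak at nt 322. EEF1B2 had no peak in FL or ΔNTR and 1 of score 4 in ΔCTR, at nt 84, next to the start codon, which begins at nt 86. EEF1D had 2 FL peaks of score 3, at nt 1309 and nt 1372 of the coding sequence, and 1 ΔCTR peak of score 4 at nt 1786. Its 2 ΔNTR peaks and its ΔLa-module peak, of score 3 each, lay outside the exons of the MANE Select transcript. EEF1G had no peak in any list. The genes of the eEF1 complex thus had at most 2 peaks each in any list, and no peak of theirs was centred in the first 50 nt.

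EEF2 had 28 FL peaks (18.6 to 40.5), 31 ΔNTR peaks (21.1 to 44.0) and 33 ΔCTR peaks (22.7 to 46.3), and only 22 genes had more FL peaks. Of the FL peaks, 1 lay in the 5'UTR, 20 in the coding sequence and 7 in the 3'UTR. The 3'UTR spans 501 nt against 2574 nt of coding sequence, and carried 16.2 score units per 100 nt against 3.85 in the coding sequence. The corresponding values were 14.8 and 4.16 for ΔNTR, and 14.2 and 6.10 for ΔCTR, so the 3'UTR was the denser part in all 3 lists. The highest FL peak, with a score of 30, was 50 nt wide and centred at nt 3019 in the 3'UTR (chr19:3976171-3976220, minus strand). A ΔNTR peak of score 20 at nt 3003 and a ΔCTR peak of score 23 at nt 3006 overlapped it. The next, of score 19, was centred at nt 3088, with ΔNTR peaks of 7 and 5 and a ΔCTR peak of 11 overlapping it. The ΔLa-module list had 2 peaks of score 3, at nt 316 and nt 521, neither of which overlapped an FL peak, and ΔNTD had none. The middle 30 bases of both FL sites are shown, since they carried the highest scores of this gene, with the longest pyrimidine run in capitals.
EEF2, FL score 30, chr19:3976181-3976210, minus strand: ttgggtacatggcccgcagtggCTTTTgcc
EEF2, FL score 19, chr19:3976112-3976141, minus strand: gcaggcaggaagTCCTgtgcggtgtcacca
At all 28 FL peaks of EEF2, pyrimidines made up 49.5% ± 9.98 (SD over peaks) of the 31 nt around the centre, against 48.4% of the whole transcript. The SD describes single peaks and not the error of their mean, and the difference was not tested. For PABPC1 the values were 50.1% ± 12.2 over 17 FL peaks against 48.6%. For TPT1 they were 53.6% ± 19.0 over 7 FL peaks against 45.3%.

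**Figure D2:**
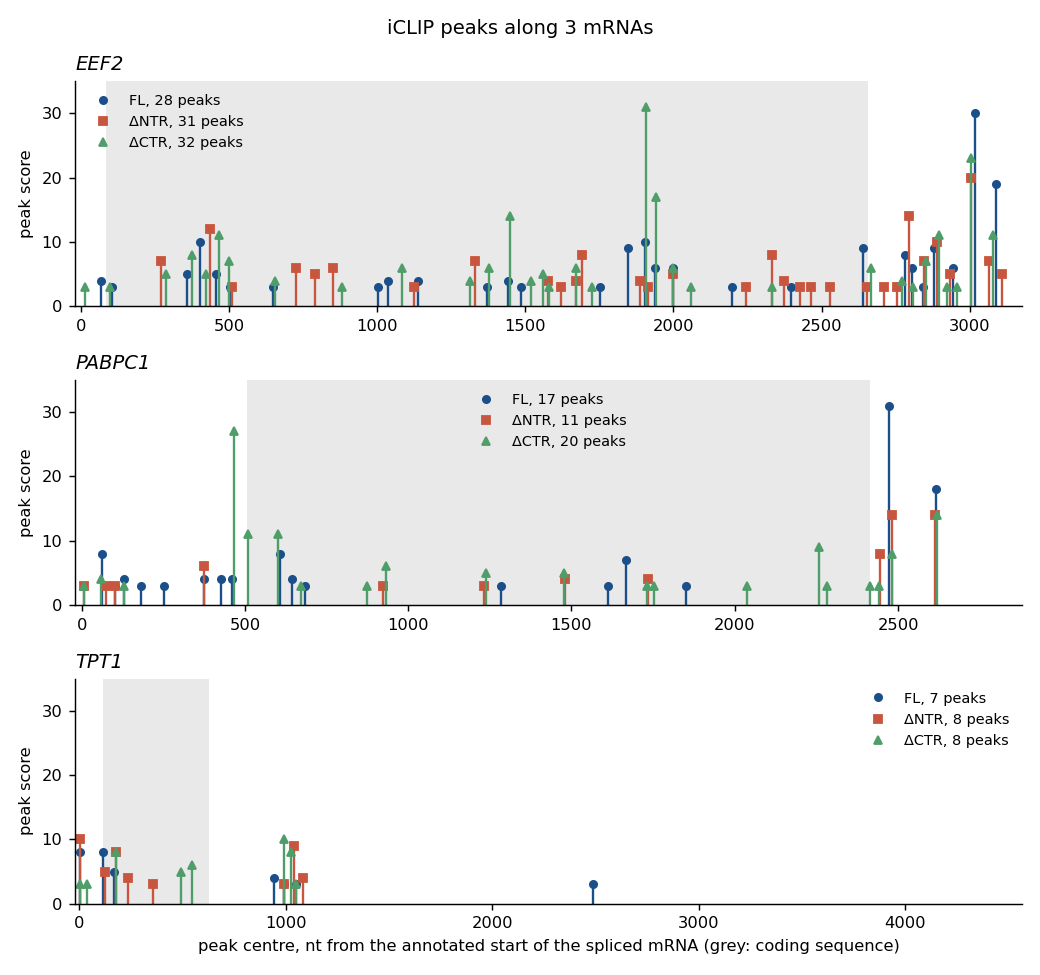
Peak score (vertical axis) against the centre of each exonic peak along the spliced EEF2, PABPC1 and TPT1 mRNAs (horizontal axis, nt from the annotated start), with the coding sequence in grey. Points are single peaks of pooled lists, blue for FL, red for ΔNTR and green for ΔCTR. In EEF2 and PABPC1 the highest FL peaks, of 30 and 31, lie near the 3' end, and in TPT1 a peak lies at the start in each list.

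All 7 FL peaks in the EEF2 3'UTR were overlapped by both a ΔNTR and a ΔCTR peak. In its coding sequence 8 of 20 were overlapped by ΔNTR, 14 by ΔCTR and 7 by both. A pair of sites was singled out after the values had been seen. At nt 1906 of the coding sequence the ΔCTR peak scored 31, against 10 for the FL peak at nt 1903 and 4 and 3 for the ΔNTR peaks at nt 1886 and nt 1914. Beside it, at nt 1940, the ΔCTR score was 17 and the FL score 6, with no ΔNTR peak. Whether these differences exceed the spread between replicates could not be tested.

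PABPC1 had 17 FL peaks (9.90 to 27.2), 12 ΔNTR peaks (6.20 to 21.0) and 21 ΔCTR peaks (13.0 to 32.1). Its FL peaks were spread over a long 5'UTR of 505 nt (8 peaks, summed score 33), the coding sequence (7 peaks, 31) and the 3'UTR (2 peaks, 49). The highest, of score 31, was 91 nt wide and centred at nt 2471 in the 3'UTR, where the ΔNTR list had peaks of 14 and 8, the ΔCTR list peaks of 8 and 3 and the ΔLa-module list a peak of 3. The second, of score 18, was centred at nt 2617 and was overlapped by a ΔNTR and a ΔCTR peak of score 14 each. The only ΔNTD peak in the 8 genes, of score 7, was centred at the same base. The total score of that list was 999.

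The 3 lists also differed around the PABPC1 start codon, which begins at nt 506. Within 100 nt of it, a window chosen after the values had been seen, FL had 3 peaks with a summed score of 16, ΔNTR had none and ΔCTR had 3 with a summed score of 49. The highest of the latter scored 27 and was centred at nt 466, where the overlapping FL peak scored 4. Of the 7 FL peaks in the PABPC1 coding sequence, ΔNTR peaks overlapped none and ΔCTR peaks 2. The coding sequence held 27.4% of its FL score, 20.6% of its ΔNTR score and 51.1% of its ΔCTR score. These are single pooled values, and the spread behind them was not known.

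TPT1 had 7 FL peaks (2.81 to 14.4), 8 ΔNTR peaks and 8 ΔCTR peaks (3.45 to 15.8 each), and it was the only one of the 8 mRNAs with a peak at its start in all 3 lists. This peak, centred at nt 2, scored 8 (FL), 10 (ΔNTR) and 3 (ΔCTR), and it reached 8 to 10 nt upstream of the annotated start. The other FL peak of score 8 was centred at nt 114, the base before the start codon at nt 115. A ΔNTR peak of score 5 at nt 125 overlapped it, and no ΔCTR peak did. Further peaks fell in the coding sequence, at nt 170 to 178 with scores of 5 in FL and 8 in each of ΔNTR and ΔCTR. In the 3'UTR, peaks at nt 991 and 992 scored 3, 3 and 10 in FL, ΔNTR and ΔCTR. Only 1 peak, of score 3 in FL, lay in the far part of the annotated 3'UTR of 3918 nt, at nt 2487. ΔLa-module and ΔNTD had no peak in TPT1.

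The site at the TPT1 start is printed whole, because it is the highest-scored of the peaks over a tract, and the capitals mark the pyrimidine run. Of the second site the middle 30 bases are given with the start codon in capitals. The NPM1 site is the other FL peak in a first window of 50 nt, again with its longest pyrimidine run in capitals.
TPT1 start, FL score 8, chr13:45341172-45341192, minus strand: tgagtcggCCTTTTCCgcccg
TPT1 start codon, FL score 8, chr13:45341056-45341085, minus strand: cccttcagtcgccatcATGattatctaccg
NPM1, FL score 3, chr5:171387872-171387892, plus strand: tgcgcggttgTTCTCTggagc
NPM1 had 2 FL peaks of score 3, at nt 34 and at nt 548 in its coding sequence, and none in the other 4 lists. Its first peak lies downstream of the tract of 8 nt, whereas the TPT1 peak spans the tract.

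Peaks centred in the first 50 nt were few. In FL they were found in 2 of the 8 mRNAs, TPT1 and NPM1 (25%, exact binomial interval 3.19 to 65.1%). In ΔNTR they were found in TPT1 and in PABPC1 (score 3, nt 6). In ΔCTR they were found in 3 mRNAs: TPT1 with peaks at nt 2 and nt 39, EEF2 with a peak at nt 15 and PABPC1 with one at nt 7, all 4 of score 3. The same call was made for 2.23% (FL), 2.46% (ΔNTR) and 1.7% (ΔCTR) of genes of at least 10 CPM, and for 12.4, 15 and 10.7% of the genes at least as abundant as EEF1D. The intervals of the 8 genes include these latter shares, but they are wide and the genes were chosen by name, so they settle little. Of the 7 genes with counts, which that background requires, 28.6% (FL), 28.6% (ΔNTR) and 42.9% (ΔCTR) had such a peak. The FL count fell to 1 with a window of 25 nt and rose to 4 with one of 100 nt, where PABPC1 (nt 61) and EEF2 (nt 69) were added. Among the 91 abundant genes that start with C and at least 5 pyrimidines, 23.1% had such an FL peak, 25.3% a ΔNTR peak and 24.2% a ΔCTR peak. These 91 include 7 of the 8 described. For the other abundant genes the shares were 10.8, 13.5 and 8.7%. Of the cytosolic ribosomal protein genes of at least 10 CPM, 58 start so, and 18 of these had such an FL peak. Among 18 other non-ribosomal TOP mRNAs the numbers were too small to give an order. Of these, 13 start so, and 2, 3 and 1 of them had such a peak in the 3 lists (15.4, 23.1 and 7.69%). Of the rest, 1, 2 and 1 had one (20, 40 and 20%).

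By region, 12 of the 58 FL peaks of the 8 genes lay in 5'UTRs (20.7%), 33 in coding sequence (56.9%) and 13 in 3'UTRs (22.4%), against 4.50, 36.3 and 49.0% of all FL peaks assigned to genes. PABPC1 alone supplied 8 of the 12 peaks in 5'UTRs and EEF2 20 of the 33 in coding sequence. In ΔNTR and ΔCTR, 9.43 and 12.3% of the peaks of the 8 genes were in 5'UTRs, against 4.24 and 2.80% of all. The 13 peaks in 3'UTRs held 143 of the 350 score units of FL, and the 33 in coding sequence 151.

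Of the 58 FL peaks, 25 were overlapped by a ΔNTR peak by at least 1 nt (43.1%, Wilson interval 31.2 to 55.9%) and 33 by a ΔCTR peak (56.9%, 44.1 to 68.8%). Over all FL peaks the shares were 35.3 and 37.9%. The ΔCTR share of the 8 genes was above that of all FL peaks by more than the counting error, but for FL scores above 3 it was 66.7% (49.6 to 80.2%) against 60.9% of all, a difference within that error. EEF2 alone gave 21 of the 33 peaks, and without it 12 of 30 FL peaks were overlapped by ΔCTR (40%, 24.6 to 57.7%) and 10 by ΔNTR (33.3%, 19.2 to 51.2%). Among the 14 FL peaks of these genes with a score of 8 or more, 12 were overlapped by ΔNTR and 12 by ΔCTR, near the shares of 82.4 and 88.6% over all 2572 FL peaks of such a score. Peaks of both lists overlapped 11 of 13 FL peaks in 3'UTRs, 8 of 33 in coding sequence and 2 of 12 in 5'UTRs, against 28.8, 23.7 and 18.4% of all FL peaks in these regions. Of the 11 in 3'UTRs, 7 belong to EEF2. These regional shares were not matched on score. Among FL peaks of score 8 or more, both lists overlapped 11 of the 14 in these genes and 76% of all.

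The score was then set against the RNA level, as the summed score per 1000 counts of the long-RNA library of the same line. In FL it was 3.09 for PABPC1, 2.98 for EEF2, 1.15 for TPT1, 0.943 for EEF1D, 0.189 for NPM1, 0.0570 for EEF1A1 and 0 for EEF1B2. The median of the 657 abundant genes with an FL peak was 2.83. Of the 712 abundant genes 57.0% lay below PABPC1 and 55.6% below EEF2, so both sat near the middle, and 7.73% lay below EEF1A1. In ΔNTR the values were 2.20 for PABPC1, 3.13 for EEF2 and 1.74 for TPT1, against a median of 3.55 for genes with a peak. In ΔCTR they were 3.31, 3.82 and 1.56, against a median of 3.80. With score units as the counts, the FL intervals of PABPC1 (2.55 to 3.72) and EEF2 (2.56 to 3.44) overlap, so their order in FL is not settled. TPT1 was the lowest of these 3 genes in each list. EEF1A1, at 0 in ΔNTR and 0.0259 in ΔCTR, stayed far below all 3 of them.

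**Figure D3:**
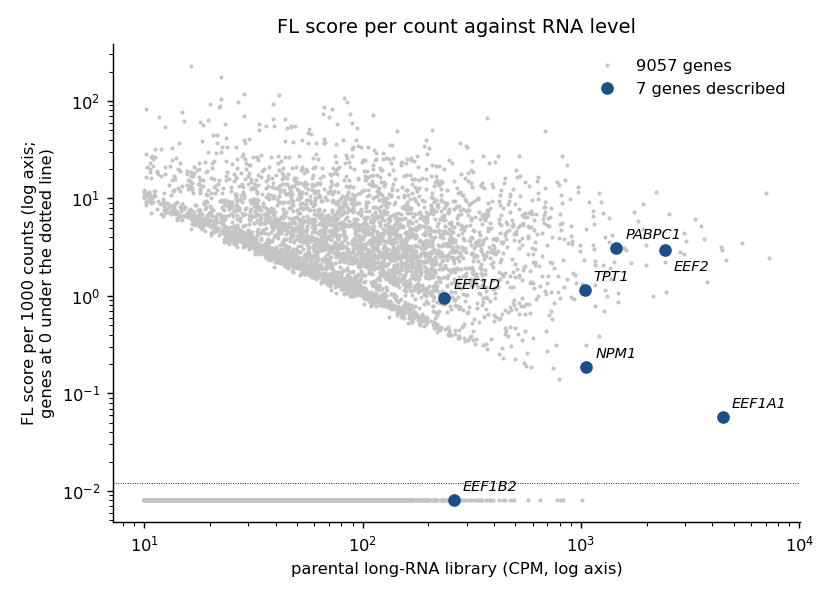
FL peak score per 1000 long-RNA counts (vertical axis, log scale) against the level in the parental library (horizontal axis, CPM, log scale) for 9057 genes in grey and the 7 described genes with counts in blue. Genes with no FL peak are drawn under the dotted line. The sloping lower edge is set by the minimum score of 3, and EEF1A1 lies at 0.0570, while the 4 genes with more counts lie between 2.35 and 11.4.

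Other genes of the translation machinery gave a range of comparison. Of 75 cytosolic ribosomal protein genes of at least 10 CPM, 65.3% had an FL peak, with a median of 0.412 score units per 1000 counts, and 26.7% had a peak in the first 50 nt. Of 18 other non-ribosomal TOP mRNAs, 83.3% had an FL peak, the median was 0.835 and 16.7% had a peak in the first 50 nt. Of 20 other genes of elongation and of TOP control, such as EEF2K and LARP1, of which 1 starts with the tract, 40% had an FL peak and 0 had one in the first 50 nt. The median of the 7 described genes with counts was 0.943, and it lay below that of all abundant genes, 2.52.

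Parts of several of these mRNAs recur in the genome, through processed pseudogenes and related genes. For each mRNA the share of its 31-nt words that occur exactly at another place in GRCh38 was counted. It was 0% for EEF2, 10.7% for TPT1, 20.4% for EEF1D, 41.5% for PABPC1, 52.7% for EEF1A1, 81.0% for EEF1B2, 82.7% for EEF1G and 87.6% for NPM1. For the EEF1A1 coding sequence it was 98.3% and for its first 50 nt 100%, while the first 50 nt of EEF2, TPT1, PABPC1 and NPM1 had none. PABPC1 had 17 FL peaks at 1449 CPM in the parental library, and EEF1D, with the lower share, had 2 at 237 CPM. Peak numbers were not adjusted for this difference in RNA level. The annotation lists 49 numbered pseudogenes each for EEF1A1 and NPM1 and 0 for EEF2. Over the abundant genes, 96% of the 403 with less than 5% of such words had an FL peak, 93.2% of the 219 with 5 to 40%, and 73.3% of the 90 with 40% or more. The median score per 1000 counts was 3.14, 2.17 and 0.706 in these 3 groups. Of the 17 exonic FL peaks of PABPC1, 2 were centred on a word found elsewhere, and both of those of EEF1A1 were. How reads that fit several places were treated in the iCLIP data is not given in the sources used here, and the part of this in the low scores of EEF1A1, EEF1B2, EEF1G and NPM1 was not tested. The values of these 4 genes are therefore uncertain, in the iCLIP data and in the counts. Those of PABPC1, TPT1 and EEF1D are so in part. The share was 49.6% for the coding sequence of TPT1, 47.4% for that of PABPC1 and 48% for the first 50 nt of EEF1D. In TPT1, 0 of 7 FL, 2 of 8 ΔNTR and 2 of 8 ΔCTR exonic peaks were centred on such words. In EEF1D 1 of 2 FL peaks was.

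**Figure D4:**
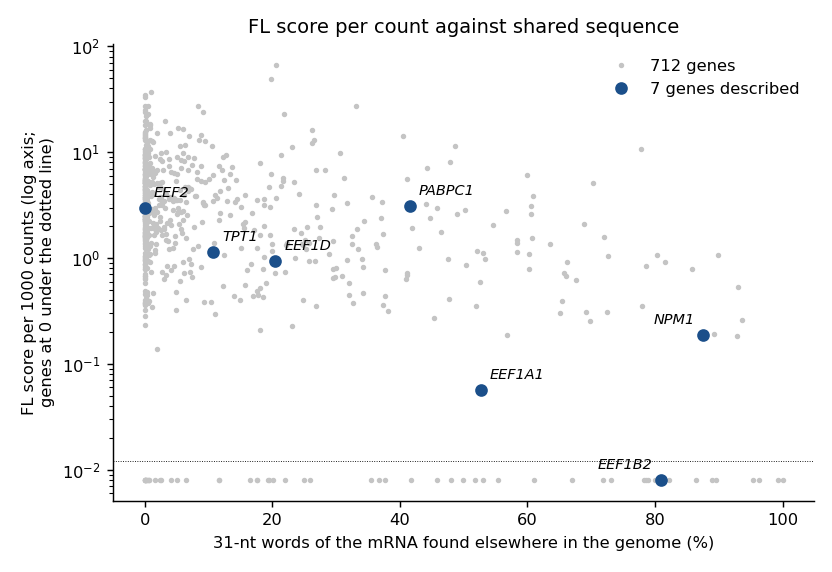
FL peak score per 1000 long-RNA counts (vertical axis, log scale, genes without a peak under the dotted line) against the share of 31-nt words of the mRNA that occur elsewhere in the genome (horizontal axis, %), for 712 abundant genes in grey and 7 described genes in blue. EEF2 at 0% and PABPC1 at 41.5% lie near 3, and NPM1, EEF1A1 and EEF1B2, at 52.7% or more, at or under 0.189.

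EEF1G was listed at 0 counts in all 6 libraries. A read-through gene annotated on the same strand (ENSG00000255508) covers 99.5% of the bases of its mRNA, reads that overlap 2 genes enter neither count, and that gene itself had 6 counts in the parental library. No RNA level and no score per count could be given for EEF1G.

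RNA levels of the other 7 genes were high and nearly the same in the 6 lines. In the parental library EEF1A1 had 119283 counts (4470 CPM), EEF2 64628 (2422 CPM), PABPC1 38664 (1449 CPM), NPM1 28260 (1059 CPM), TPT1 27751 (1040 CPM), EEF1B2 6993 (262 CPM) and EEF1D 6313 (237 CPM). Only 4 of 9057 genes had more counts than EEF1A1. Per kb of mRNA the order of the levels was EEF1A1 at 1273 CPM, NPM1 at 802, EEF2 at 767, PABPC1 at 507, EEF1B2 at 324, TPT1 at 229 and EEF1D at 113.

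PABPC1 had 1308 CPM in the FL line, 1236 in the ΔNTR line, 1491 in the ΔCTR line, 1233 in the ΔLa-module line and 1203 in the ΔNTD line. Its log2 fold change against parental cells was -0.15 for FL (counting interval -0.17 to -0.13), -0.22 for both ΔNTR and ΔLa-module, 0.04 for ΔCTR and -0.25 for ΔNTD. Only ΔCTR was above the parental library. NPM1 had 1139, 997, 1150, 1144 and 1211 CPM in the same order, and the highest log2 fold change of the 7 genes, 0.21 in ΔNTD (0.19 to 0.24). EEF2 was at 2213, 2311, 2292, 2403 and 2338 CPM, with its lowest log2 fold change of -0.13 in FL. EEF1A1 ranged from 4167 to 4400 CPM over the 5 lines, TPT1 from 1051 to 1103, EEF1B2 from 233 to 256 and EEF1D from 222 to 239.

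None of the 7 genes passed a 1.5-fold difference in any line, a difference that few of the 9057 genes passed: 0.254% (FL), 2.9% (ΔNTR), 0.409% (ΔCTR), 1.48% (ΔLa-module) and 1.25% (ΔNTD). The median log2 fold change of the 7 genes was -0.06 (FL), -0.08 (ΔNTR), -0.04 (ΔCTR), -0.01 (ΔLa-module) and -0.02 (ΔNTD), within 0.1 of the median of all genes in each line. With unstranded counts the last 3 of these medians were above 0 (0.06, 0.02 and 0.02). The changes were small also where the counting interval left out 0. For PABPC1 in ΔNTD 17.6% of all genes changed more, and for NPM1 in the same line 23.4%. All 5 comparisons share the single parental library, and the spread between cultures is unknown. For PABPC1 these RNA levels moved with the scores, which were 113, 68 and 133 in the FL, ΔNTR and ΔCTR lists and 3.09, 2.20 and 3.31 per 1000 counts. Their part in the difference between lists was not tested.

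**Figure D5:**
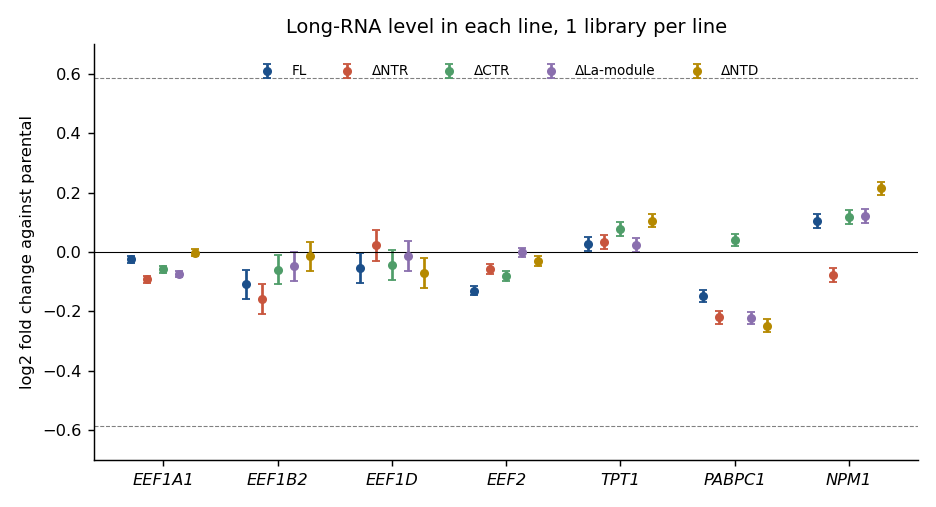
Log2 fold change of the long-RNA level against parental cells (vertical axis, log2 of CPM + 1) for the 7 genes with counts in the 5 lines. Points are single libraries, bars the 95% counting interval, and dashed lines mark a 1.5-fold change, which no point reaches. PABPC1 lies between -0.25 and 0.04 and NPM1 between -0.08 and 0.21.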

How the data were processed

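iCLIP was done on 18 samples and total RNA was sequenced in long-RNA libraries of the 6 lines. Per the methods, the authors used Ultraplex to demultiplex iCLIP reads and TrimGalore to trim them, discarded rRNA and tRNA reads with Bowtie 2, aligned the rest to GRCh38 with STAR and removed duplicates with UMI-tools. They called peaks per replicate with Clippy, merged them with bedtools 2.30.0, and subtracted parental peaks, so a site also called in parental cells cannot appear. The deposited score is the authors' sum over replicates, not scaled to depth. Crosslinks of single replicates were not analysed here. The deposited counts per gene were made by the authors with STAR 2.7.10b after Trim Galore 0.6.10, and the reverse-strand column was used, whose total was 8.76 to 9.71 times that of the forward column. Reads in genes were 62.2 to 65.6% of all reads. Small-RNA libraries were not used.

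Annotation was GENCODE 44, a later release than the authors', and 62672 of 62750 identifiers matched it. Counts were scaled by TMM factors (edgeR 4.0.16) and fold changes were taken on log2(CPM + 1), which understates changes of low genes; for background shares, genes needed at least 10 parental CPM. Intervals are exact Poisson for peaks, Wilson or exact binomial for shares, and exact binomial for ratios of 2 counts. The sequencing of reads without molecular identifiers makes count intervals minimum errors. Copies elsewhere were counted as exact 31-nt words, either strand, outside the gene's own span. Code was tested on simulated data. No tests were run, since the 3 iCLIP replicates of a line are pooled in the deposited lists and each line has 1 long-RNA library.

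All 8 genes were named. Single peaks were named if centred in the first 50 nt or among the 2 highest FL peaks of a gene, others where stated or where a gene had few or where lists overlapped. The genes and comparison lists were chosen with earlier results of these data known. Alternatives covered the window, annotated start, minimum score, overlap, exon rule, count column, scaling (library totals, DESeq2 1.42.0 size factors), pseudocount, filter and fold.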

Additional observations from a re-analysis of the deposited data

How the results depend on the processing

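No paired analysis was possible because each peak list is a pool and each line has 1 long-RNA library, which also leaves no replicate to leave out. Of 253 alternative values, 219 stayed within the stated error or within 1.5 times the count and 34 moved further. No log2 fold change of the 7 genes was past 1.5-fold, so none of that size could change sign. Of 140 log2 fold changes by gene, 9 changed sign, all of 0.07 or less in size. Of these, 7 did so with unstranded counts and 2 with DESeq2 size factors. With unstranded counts EEF1D went from -0.06 to 0.20 in FL, from -0.04 to 0.32 in ΔCTR, from -0.01 to 0.30 in ΔLa-module and from -0.07 to 0.10 in ΔNTD, and the medians of the 7 genes in ΔCTR, ΔLa-module and ΔNTD became positive (0.06, 0.02 and 0.02). Keeping only scores above 3 left 33 FL peaks, 32 ΔNTR peaks, 40 ΔCTR peaks and 0 ΔLa-module peaks in the 8 genes. It moved the share of the list's score to 0.367% (ΔNTR), 0% (ΔLa-module) and 2.54% (ΔNTD), and left 1, 1 and 0 genes with a peak in the first 50 nt in FL, ΔNTR and ΔCTR. The FL count of such genes was 1 with 25 nt, 4 with 100 nt and 4 when any annotated start counted. Requiring peaks to overlap by 50% of both gave 22.4% for ΔNTR and 32.8% for ΔCTR, and FL scores above 3 gave 57.6% for ΔNTR. Unstranded counts put 1 gene, EEF1D (5.77 per 1000), above the median of all genes of at least 10 CPM with an FL peak. With the reverse-strand counts that median was 3.38 and 0 of the 7 genes lay above it. It leaves out genes without a peak, and the minimum score of 3 sets a higher lowest value for genes with fewer counts. Over all 9057 genes, with or without a peak, the median was 0. Without EEF2, an alternative chosen after seeing the data, 30 FL, 22 ΔNTR and 32 ΔCTR peaks remained. EEF1D had far fewer unstranded than reverse-strand counts, at 1040 against 6363 in the FL library and 862 against 6313 in the parental library. TPT1 also had fewer, at 14452 against 29592 and 12571 against 27751 in the same libraries. With unstranded counts its FL score per 1000 counts went from 1.15 to 2.35. The causes of these shifts were not tested, beyond the fewer peaks and genes these settings leave. Log2 fold changes by gene moved by over 0.1 in 8 of 140 alternative values.

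The minimum score of 3 limits what can be seen: 25 of the 58 FL peaks were at it, as were all 4 peaks of ΔCTR in a first window. A gene without a peak is not shown to be unbound. Peaks were called separately and merged, so their number depends on how sites were split. The depth of each list, the treatment of reads that fit several places and the spread between replicates are unknown here.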
